A study of Mus musculus with 3 samples.

Results

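Cholesterol synthesis and its control were followed through 27 genes in LepR+ cells of the mouse superior cervical ganglion, which sends sympathetic fibres to the head and neck. The genes were taken by symbol from a list of sterol synthesis, sensing, uptake and storage genes, and all 27 were found among the 52550 genes of the deposited table. The cells were sorted from male mice aged 10 weeks with the genotype LepRCRE::Ai32, in which Cre recombinase expressed from the leptin receptor gene (Lepr) switches on a channelrhodopsin fused to yellow fluorescent protein. Cre acts on DNA, so a cell that expressed Lepr at an earlier time keeps the reporter. Live reporter-positive cells made up the only group, in 3 biological replicates, and the cell and animal numbers per library are not stated in the labels. Values are TPM, reads per gene length scaled to a fixed library total, so levels of different genes can be compared. Smart-Seq2 libraries of bulk sorted cells cannot tell fewer cells of a type from less RNA per cell.

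Cells make cholesterol from acetyl-CoA through mevalonate, farnesyl diphosphate and squalene, the last of which is closed into the ring compound lanosterol and trimmed to cholesterol in the endoplasmic reticulum. Supply is sensed in the same membrane: when sterol is scarce, Scap carries the SREBP factors to the Golgi, where they are cut into active transcription factors for the pathway genes, and when sterol is plentiful the Insig proteins hold Scap back. Schwann cells, the glia of peripheral nerve, need much cholesterol for myelin and largely make their own.

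The recovered depth was 7709820 to 8298511 reads per library. Lepr itself, the gene used for the sort, stood at 363, 32.1 and 54.0 TPM in replicates 1, 2 and 3. Markers of satellite glia and Schwann cells had the highest summed level of the cell type lists, with 9 of 12 above 1 TPM and a sum of 27740 to 32813 TPM, against 466 to 710 TPM for 10 perineurial markers, 4471 to 6645 TPM for 8 fibroblast markers and 298 to 378 TPM for 7 endothelial markers. Most of the glial sum came from Fabp7 (mean 14163 TPM) and Apoe (mean 8934 TPM), while Glul, Gfap and Foxd3 passed neither way. Summed levels were 133 to 474 TPM for 6 mural markers, 1.75 to 102 TPM for 8 macrophage markers, 122 to 314 TPM for 8 sympathetic neuron markers and 22.7 to 48.9 TPM for 5 adipocyte markers. Above 1 TPM were 5 of the fibroblast, 3 of the endothelial, 5 of the mural and 0 of the macrophage markers. So were 2 of the neuron and 1 of the adipocyte markers, beside 16.4% of all genes tested. The series title calls the cells perineurial: 4 of the 10 perineurial markers were above 1 TPM, among them Cldn1 at 216, 246 and 220.5 TPM, and 1 was below, and the cells are called LepR+ cells here. Krt19 of the perineurial list, Pi16 of the fibroblast list and Npy of the neuron list had no read in any library. The part of each cell type in the sterol gene levels was not tested.

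The sterol genes stood high, but unevenly. Of the 27, 18 lay above 1 TPM and 0 below in limma's moderated test (adjusted p under the threshold of 0.05 over 27514 genes with a read), and 9 passed neither way. Over all genes tested, 16.4% were called above and 18.5% below. At an unadjusted p under the same threshold, limma placed 21 members above and 1, Mvk, below. The share of all genes at that unadjusted threshold was not counted for this fit. The median member had a mean of 77.8 TPM, against 1.12 TPM for the median gene tested, and 23 of the 27 reached 1 TPM in every library, as did 23.6% of genes tested. Together the 27 genes took 4177, 2187 and 3128 TPM. The calls depended on the libraries used: without replicate 1 or without replicate 2 limma called 0 of 27514 genes, members included. At an unadjusted p under 0.05 in these 2 fits, 17 and 18 members were above, beside 4643 and 4447 of the 27514 genes. Without replicate 3 limma called 9 of the members above, against 8.91% of all genes tested. Those 9 were Insig1, Hmgcs1, Idi1, Sqle, Cyp51, Stard4, Npc1, Npc2 and Soat1.

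**Figure D1:**
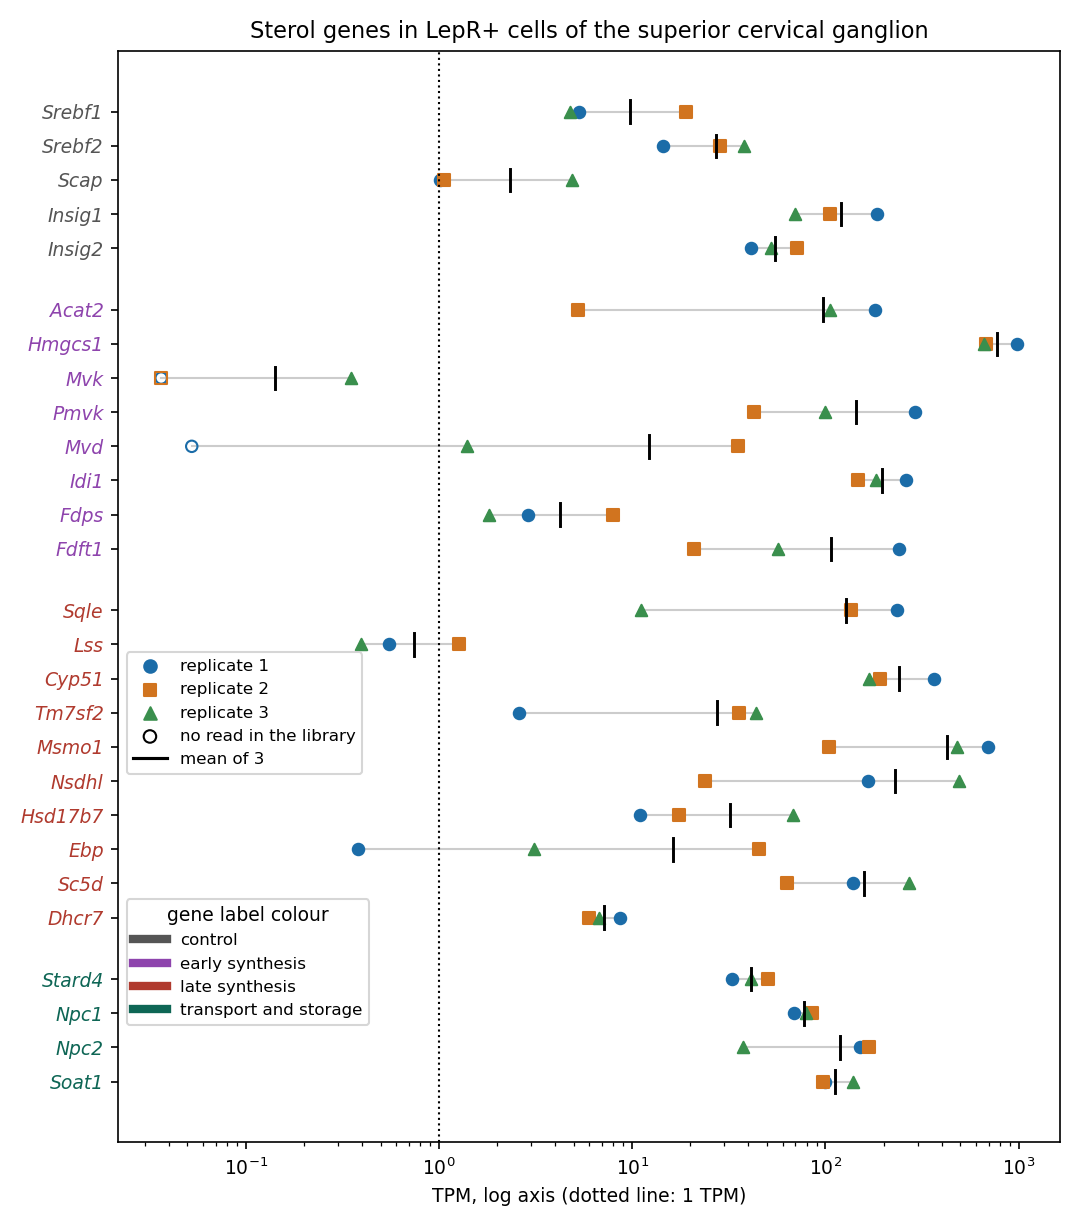
TPM (log axis) of the 27 sterol genes in each of 3 libraries of LepR+ cells, grouped by role from top to bottom in pathway order, with the mean as a black tick and open symbols where a library had no read. Hmgcs1 stood highest, at 662 to 980 TPM, while Mvk, the enzyme that acts on the mevalonate made downstream of it, had 0, 0 and 2 reads.

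Among the control genes, both Insig retention factors were above Scap, which they retain, in every library. Insig1 (ENSMUSG00000045294.11, chromosome 5, 28071363 to 28078662 of GRCm38, forward strand), whose own transcription is raised by SREBP, had 185, 105 and 69.3 TPM, a mean of 120.0 ± 59.4 (SD, n = 3) that passed the test against 1 TPM (limma, adjusted p = 0.00713). Insig2, which is less dependent on SREBP, had 41.3, 71.6 and 52.5 TPM (adjusted p = 0.00492 in limma's test). Insig1 lay above Insig2 in 3 of 3 libraries, by 1.03 ± 0.97 on the log2(TPM + 1) scale (SD, n = 3; exact sign-flip test, p = 0.25, adjusted p = 0.3 over the 6 pairs tested, of which 5 are reported), although the gap was 2.14 in replicate 1 and only 0.55 and 0.40 in replicates 2 and 3. With 3 libraries this exact test cannot go below p = 0.25, for this pair or any other.

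Srebf2, which encodes the factor that acts mainly on cholesterol genes, had 14.5, 28.5 and 38.0 TPM and lay above 1 TPM (limma, adjusted p = 0.0160). Srebf1, whose product acts more on fatty acid genes, had 5.30, 19.0 and 4.77 TPM and missed the threshold (limma, adjusted p = 0.0522, and 0.0410 with a pseudocount of 0.1 TPM). Srebf2 exceeded Srebf1 in 3 of 3 libraries, by 1.54 ± 1.12 in log2(TPM + 1) (SD, n = 3; exact sign-flip test, p = 0.25, adjusted p = 0.3). Scap, the escort protein, was low, at 1.01, 1.06 and 4.90 TPM from 19, 20 and 87 reads (limma, adjusted p = 0.398), and a transcript on the other strand, 5830462I19Rik, covers 13.2% of its exon length. In all, 3 of the 5 control genes were called above 1 TPM, and the median of their mean levels was 4.71 in log2(TPM + 1), against 0.88 over all genes tested.

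The enzymes up to squalene ranged over the whole scale, with 4 of 8 called above 1 TPM. Hmgcs1 (ENSMUSG00000093930.2, chromosome 13, 119690379 to 119708260, forward strand), which makes the HMG-CoA that is reduced to mevalonate, led all 27 genes in every library, at 980, 676 and 662 TPM. Its mean was 773 ± 180 TPM (SD, n = 3; limma against 1 TPM, adjusted p = 0.00357). Its mean of log2(TPM + 1) exceeded that of 99.68% of genes tested. Idi1, the isomerase of the isoprene units, was also close between libraries, at 261, 148 and 182 TPM (adjusted p = 0.00376 in limma's test). Its stretches of 50 bases were found in transcripts of other genes for 25.3% of its sequence, so its level is uncertain, as the sources used here do not say how reads with several places were counted. For Hmgcs1 that share was 11.6%, and a transcript on the other strand, AC123738.2, covers 12.1% of its exon length.

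Other enzymes of this stretch swung widely. Pmvk, which adds the second phosphate to mevalonate, had 290, 42.9 and 99.6 TPM, and Fdft1, squalene synthase, had 241, 20.9 and 57.1 TPM. Both were called above 1 TPM (limma, adjusted p = 0.0237 for Pmvk and 0.0434 for Fdft1), and both were highest in replicate 1 and lowest in replicate 2. Acat2, the cytosolic thiolase that joins acetyl units, followed the same order at 181, 5.26 and 106 TPM and passed neither way (limma, adjusted p = 0.0680), but was called above with a pseudocount of 0.1 TPM (0.0336), a minimum mean of 0.5 TPM (0.0241) or a mean-variance trend (2.485e-08). Acat2 shares 39.1% of its stretches of 50 bases with its near copy Acat3 or with Tcp1, and Acat3 had 0, 1 and 0 reads, so its level is uncertain too. Fdft1 overlaps the end of Ctsb on the other strand over 18.3% of its exon length, and Ctsb had 322, 193 and 145 TPM, again with replicate 1 highest. Of the stretches of 50 bases in Fdft1, 26.5% occur in transcripts of Ctsb or Gm6781, so the level of Fdft1 is uncertain as well. Whether reads of Ctsb entered the Fdft1 values was not tested.

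The remaining early enzymes were low or patchy. Mvk (ENSMUSG00000041939.14, chromosome 5, 114444269 to 114460591, forward strand), mevalonate kinase, had 0, 0 and 2 reads, where 3 reads would be 0.439, 0.438 and 0.469 TPM (limma, adjusted p = 0.05 as rounded, just over the threshold, and 0.03405 without replicate 3, 0.0176 with no filter and 1.967e-13 with the trend). Mvd, the decarboxylase that makes the isoprene unit, gave 0, 167 and 6 reads, so that it stood at 35.2 TPM in replicate 2 and 1.405 TPM in replicate 3 (limma, adjusted p = 0.509). Fdps, farnesyl diphosphate synthase, was read in each library but stayed at 2.91, 8.01 and 1.81 TPM (limma, adjusted p = 0.117). Fdps lay below Fdft1, the enzyme that uses its product, in 3 of 3 libraries, with a difference of -3.87 ± 2.38 in log2(TPM + 1) (SD, n = 3; exact sign-flip test, p = 0.25, adjusted p = 0.3). A gene annotated on the same strand, Gm43738, covers 26.7% of the exon length of Fdps, and 26.2% of its stretches of 50 bases occur in transcripts of other genes, and whether this changed the count of Fdps was not tested.

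After squalene, 7 of 10 enzymes were called above 1 TPM. Cyp51 (ENSMUSG00000001467.5, chromosome 5, 4081145 to 4104746, reverse strand), the demethylase of lanosterol, had 364, 191 and 168 TPM and lay above 1 TPM with a mean of 241 ± 107 TPM (SD, n = 3; limma, adjusted p = 0.00459). Msmo1 (ENSMUSG00000031604.10, chromosome 8, 64718139 to 64733792, reverse strand), the methylsterol oxidase, had 692, 105 and 483 TPM (limma, adjusted p = 0.0154). Nsdhl, the dehydrogenase of the same demethylation step, had 166, 23.9 and 494 TPM (limma, adjusted p = 0.0434), and Hsd17b7, its ketoreductase, 11.0, 17.4 and 67.9 TPM (limma, adjusted p = 0.0434, and 0.0660 at 5 TPM). The 3 genes of that demethylation complex thus did not share a highest library: Msmo1 peaked in replicate 1, Nsdhl and Hsd17b7 in replicate 3.

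Sqle, squalene epoxidase, a control point of the pathway, had 236, 135 and 11.1 TPM (limma, adjusted p = 0.0468). That call was lost at a tested level of 0.5 TPM (adjusted p = 0.0723 in limma's test) or 5 TPM (0.0609) and without mitochondrially encoded genes (0.0679). Lss, the cyclase that takes up its product, was read 15, 35 and 10 times, or 0.553, 1.28 and 0.397 TPM (limma, adjusted p = 0.474). Sqle exceeded Lss in 3 of 3 libraries by 5.42 ± 2.11 in log2(TPM + 1) (SD, n = 3; exact sign-flip test, p = 0.25, adjusted p = 0.3). Among the 5 pairs reported, this one had the largest mean difference.

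The other steps of ring trimming were mixed as well. Sc5d, the sterol desaturase, had 138, 63.1 and 272 TPM (limma, adjusted p = 0.0125). Dhcr7, the final reductase of one branch, was low and steady at 8.70, 5.99 and 6.77 TPM (limma, adjusted p = 0.0149, but 0.187 with a mean-variance trend, 0.0621 with the minimum mean and 0.136 at 5 TPM). Tm7sf2, a sterol reductase, had 2.61, 35.7 and 43.8 TPM (limma, adjusted p = 0.0850, but 0.0442 with a pseudocount of 0.1 TPM and 0.00759 with the trend), and 15.3% of its exon length lies under Vps51 on the same strand. Ebp, the sterol isomerase, was carried by 1 library, with 2, 268 and 17 reads or 0.381, 45.4 and 3.12 TPM (limma, adjusted p = 0.348). The median level of the early enzymes minus that of the late ones was 0.76 ± 1.48 in log2(TPM + 1) (SD, n = 3), positive in replicates 1 and 3 and negative in replicate 2, so the difference was within the spread between libraries.

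**Figure D2:**
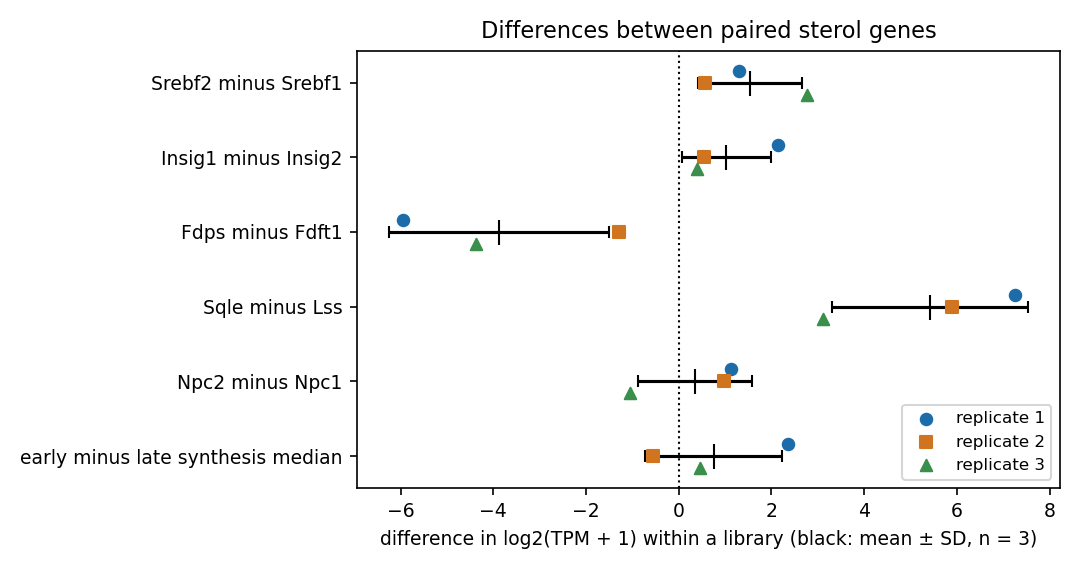
Differences in log2(TPM + 1) within each of 3 libraries for 5 pairs of sterol genes, first minus second, and for the early minus the late synthesis median, with mean ± SD in black (n = 3). Sqle minus Lss (mean 5.42) and Fdps minus Fdft1 (mean -3.87) lay farthest from 0, and Npc2 minus Npc1 had libraries on either side.

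Promoters of these genes are shown so that 3 members called above 1 TPM and the lowest member can be set beside each other for the letters that factors of the pathway are known to read: SREBP acts with NF-Y, which binds CCAAT, and SREBP itself binds sterol elements and E-boxes. RefSeq promoter windows of GRCm38.p6, 250 bases before to 50 after a start, were given for 22 of the 27 genes. CCAAT, or ATTGG on the other strand, was in a window of 20 of the 22 (90.9%), against 41.1% of all genes with a window and 42.6% of those at 1 TPM or more in every library. It was in 14 of the 14 called above 1 TPM and in 6 of the 8 others. CACGTG, which reads the same on both strands, was in 5 of the 22 (22.7%), against 8.09% of all genes and 12.2% of those at 1 TPM or more in every library, and CACCCCAC or GTGGGGTG, letters found in sterol elements, in 2 (9.09%), Hmgcs1 and Acat2, against 3.3% and 4.1%. A match is a description of letters and shows no binding. The windows below belong to Hmgcs1 (chr13:119690101-119690400, forward strand), Cyp51 (chr5:4104648-4104947, reverse strand) and Insig1 (chr5:28071162-28071461, forward strand), called above, and Mvk (chr5:114444019-114444318, forward strand), the lowest member. Capitals mark the motifs named, which do not overlap here.
Hmgcs1: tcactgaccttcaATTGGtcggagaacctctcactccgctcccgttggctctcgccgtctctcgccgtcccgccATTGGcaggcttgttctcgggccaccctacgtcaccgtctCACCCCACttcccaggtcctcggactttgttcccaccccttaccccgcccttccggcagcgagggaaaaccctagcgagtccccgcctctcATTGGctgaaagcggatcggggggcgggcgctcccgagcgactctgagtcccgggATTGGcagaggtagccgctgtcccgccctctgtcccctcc
Cyp51: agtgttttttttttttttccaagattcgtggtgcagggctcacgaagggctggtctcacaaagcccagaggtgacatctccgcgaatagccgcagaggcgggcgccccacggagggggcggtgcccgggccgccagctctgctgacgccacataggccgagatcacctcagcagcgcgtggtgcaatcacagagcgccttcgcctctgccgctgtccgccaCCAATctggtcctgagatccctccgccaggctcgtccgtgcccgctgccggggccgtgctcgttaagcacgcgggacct
Insig1: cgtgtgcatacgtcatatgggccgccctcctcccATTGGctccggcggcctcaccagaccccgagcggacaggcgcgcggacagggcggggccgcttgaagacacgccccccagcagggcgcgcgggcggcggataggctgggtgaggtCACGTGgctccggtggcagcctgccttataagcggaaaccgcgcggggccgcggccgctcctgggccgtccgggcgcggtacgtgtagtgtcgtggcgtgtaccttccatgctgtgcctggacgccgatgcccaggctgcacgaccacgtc
Mvk: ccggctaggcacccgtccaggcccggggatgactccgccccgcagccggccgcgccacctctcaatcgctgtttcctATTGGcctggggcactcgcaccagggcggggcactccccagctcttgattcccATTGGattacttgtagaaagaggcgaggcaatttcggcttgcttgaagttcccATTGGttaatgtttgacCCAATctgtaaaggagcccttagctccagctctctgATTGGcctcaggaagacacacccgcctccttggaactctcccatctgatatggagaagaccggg
Hmgcs1 held 4 CCAAT motifs and 1 CACCCCAC, Cyp51 1 CCAAT, Insig1 1 CCAAT and 1 CACGTG, and Mvk, with 2 reads in all, held 5 CCAAT motifs.

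Of the genes that move and store finished cholesterol, all 4 were called above 1 TPM. Npc1, the lysosomal membrane protein that passes sterol out of the lysosome, had 69.2, 84.9 and 79.2 TPM, and its mean of 77.8 ± 7.94 TPM (SD, n = 3) had the smallest SD on the log2(TPM + 1) scale of the 27 genes, 0.15 (limma, adjusted p = 0.00357). Npc2, the soluble partner that hands sterol to Npc1, had 152, 169 and 37.5 TPM (limma, adjusted p = 0.0187). Npc2 was above Npc1 in replicates 1 and 2 and below it in replicate 3, so the difference of 0.35 ± 1.22 in log2(TPM + 1) was within the spread (SD, n = 3; exact sign-flip test, p = 0.75), and it was -0.04 without replicate 1. Soat1, which esterifies cholesterol for storage in droplets, had 99.99, 97.5 and 139.7 TPM (limma, adjusted p = 0.00359). Stard4, a carrier of sterol between membranes, had 32.7, 50.4 and 41.2 TPM (limma, adjusted p = 0.004665). Npc1, Soat1 and Stard4 each differed by less than 2-fold between their highest and lowest library.

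Differences between libraries were larger than counting error for nearly all members. For 25 of the 27, the exact Poisson 95% intervals of the highest and the lowest library, which cover counting error only, did not overlap, with Mvk and Dhcr7 the exceptions. In 7 members the highest library was under 2-fold above the lowest, in 9 it was 2-fold to 5-fold above it, and in 10 it was more than 5-fold above it, or above the level of 3 reads where there was no read. Neither these counts nor that of the intervals was taken over all genes, so they do not set the members apart. Ebp had the widest ratio between libraries with a read, 119-fold, and Acat2 differed 34.4-fold. For Mvd, replicate 2 was 55.7-fold above the level of 3 reads in replicate 1, which had no read. No library was high throughout: 10 members were highest in replicate 1, 9 in replicate 2 and 8 in replicate 3. Of all genes whose mean reached 5 TPM, these shares were 34.3%, 35.9% and 29.9%. Only 23 of the 27 members reached that mean, so the sets are not alike.

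The spread of the members was set beside that of genes at a like level, within 0.5 in mean log2(TPM + 1). Of the 27, 14 had a smaller SD than the median of such genes, which is near an even split. Dhcr7 had an SD of 0.24, against 2.32 for genes at its level, and Npc1, Soat1, Stard4, Insig2, Srebf1, Srebf2 and Fdps were also below. Acat2, Sqle, Nsdhl, Fdft1 and Msmo1 stood on the other side, with an SD of 1.44 to 2.61 against 0.50 to 0.97 for genes at their level. Pmvk (1.37 against 0.70), Npc2 (1.20 against 0.71) and Sc5d (1.05 against 0.65) were among the others on that side. Across the 27 genes, log2(TPM + 1) had a Pearson r of 0.70 between replicates 1 and 2, 0.86 between 1 and 3 and 0.67 between 2 and 3, and a Spearman rho of 0.67, 0.82 and 0.56, as a description over genes that are not independent and share each library's depth.

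**Figure D3:**
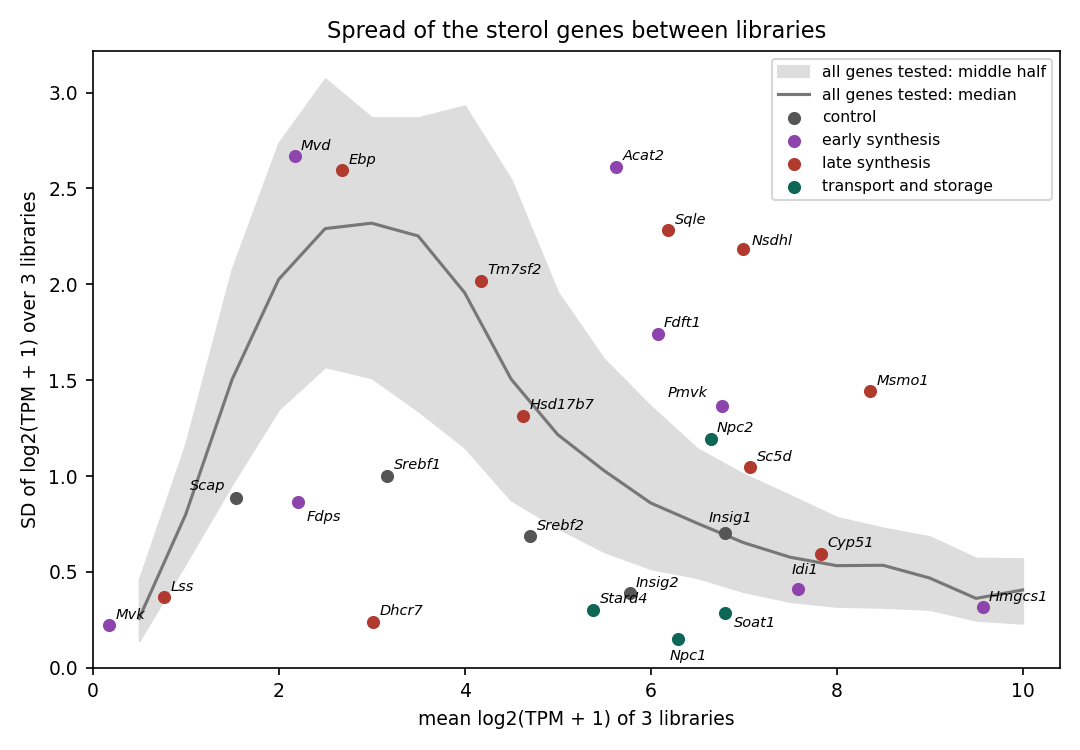
SD against mean of log2(TPM + 1) over 3 libraries for each of the 27 sterol genes, coloured by role, with the median and the middle 50% of all genes tested in grey. Npc1, Soat1, Stard4, Insig2 and Dhcr7 lie low for their level. Acat2, Sqle, Nsdhl, Fdft1, Msmo1, Pmvk, Npc2 and Sc5d lie above the grey band.

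Other genes of the pathway, in 6 lists with 67 genes in the table, gave 32 above 1 TPM and 4 below, 30 neither way and 1 without a read in limma's test, beside the 16.4% and 18.5% of all genes. Without replicate 1 or 2 limma called 0 of them (29 and 28 above unadjusted, beside 4643 and 4447 of 27514 genes). Without replicate 3 it called 20 above and 2 below, beside 8.91% and 18.4% of all genes. Among the other synthesis genes, 4 of 9 were above 1 TPM and 1 below. Erg28, a scaffold of the demethylation complex, was steady at 36.3, 41.4 and 48.1 TPM (limma, adjusted p = 0.00398).

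Of the other control genes, 4 of 11 were above 1 TPM and 1 below. Pgrmc1, a partner of sterol cytochromes and of Insig1, was the highest at 671, 592 and 863 TPM (limma, adjusted p = 0.00357). Mbtps1, the Golgi protease that makes the first SREBP cut, had 34.7, 5.79 and 54.8 TPM (limma, adjusted p = 0.0483), and Mbtps2, which makes the second, 0.242, 23.7 and 9.48 TPM (limma, adjusted p = 0.266). Both proteases were therefore uneven between libraries, but near the usual spread at their level. The SD of log2(TPM + 1) was 1.60 for Mbtps1 and 2.22 for Mbtps2. The medians of genes at a like level were 1.45 and 2.30. Rnf139, a ubiquitin ligase of the endoplasmic reticulum, had a mean of 203 ± 165 TPM (SD, n = 3; limma, adjusted p = 0.0434).

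Uptake genes had 5 of 10 above 1 TPM. Vldlr, a receptor for triglyceride-rich and Apoe-bearing particles, had 246, 178 and 192 TPM and was above 1 TPM (limma, adjusted p = 0.00357). Mylip, a ligase that degrades this receptor, had 178, 43.3 and 107 TPM (limma, adjusted p = 0.01405). Of the transport and storage genes outside the 27, 5 of 12 were above and 1, Star, below. Cav1, which builds cholesterol-rich caveolae, had 878, 911 and 723 TPM. Soat2, the other esterifying enzyme, had 2, 0 and 0 reads. In replicate 1 that was 0.397 TPM, beside 99.99 TPM for Soat1.

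Efflux and oxysterol genes had 3 of 10 above 1 TPM and 1 below. Abca1, which loads cholesterol onto apolipoproteins, had 97.3, 119.9 and 60.05 TPM (limma, adjusted p = 0.00516). Fatty acid genes that SREBP factors are known to raise had 11 of 15 above 1 TPM and 0 below in limma's test. At an unadjusted p under 0.05, 0 of them were below as well, and the share of all genes was not counted there. Scd1 and Scd2, desaturases of stearate, had 2564 ± 422 and 1937 ± 174 TPM (SD, n = 3), above Hmgcs1 in each library, and Fads1 and Acly had 583 ± 98.5 and 94.95 ± 11.98 TPM (limma against 1 TPM, adjusted p = 0.00357 for each of the 4).

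**Figure D4:**
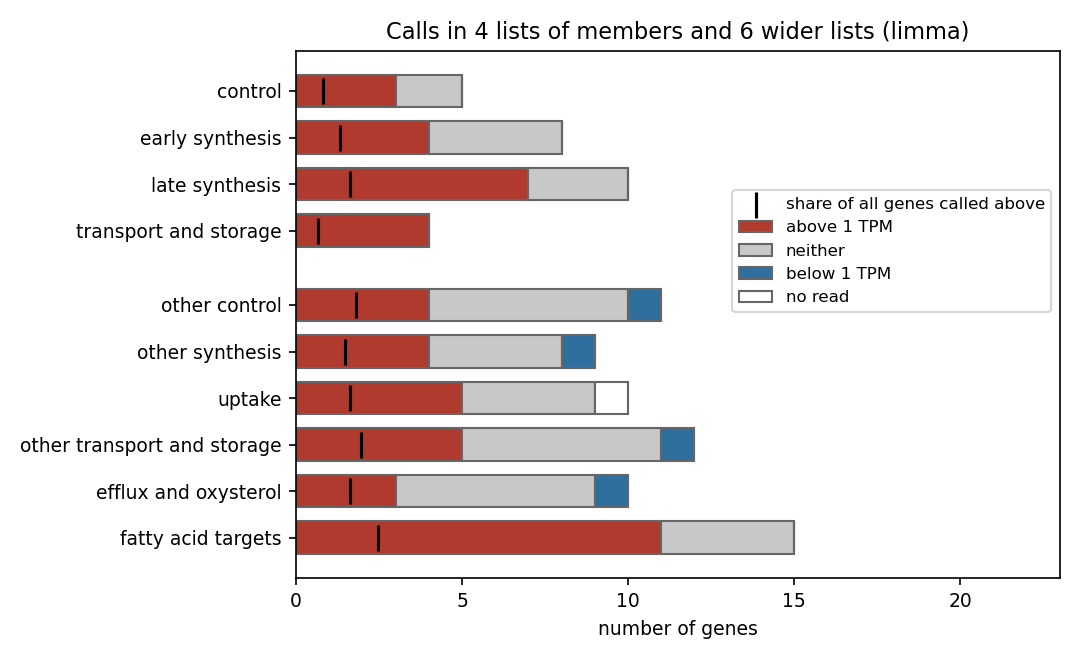
Number of genes called above 1 TPM, neither way, or below by limma, and genes without a read, in the 4 lists that make up the 27 sterol genes (top) and in 6 wider lists (bottom). Black ticks mark the number each list would hold above 1 TPM at the share of all genes tested, 16.4%, and every list lies to the right of its tick.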

How the data were processed

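RNA was measured in 3 libraries of reporter-positive cells of the superior cervical ganglion, sorted by fluorescence and made with Smart-Seq2, per the labels' protocols. The authors deposited log2 TPM per gene. The submitters' processing notes name STAR, featureCounts and mm10 (GRCm38). Tool versions, annotation, strand setting and how TPM were made: not given in the sources used here. TPM are shares of a library, so a gene that takes more lowers all others.

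Low values fitted an added 0.25 read in each gene. With exon lengths of GENCODE M21, all 49035 genes with the same versioned ID came out as whole reads within 0.02, and lengths solved from the values gave whole reads for 2339 more genes, 3 of the 27 included. Where a gene had no read its TPM is the added part alone, and reads are printed instead. Without molecular identifiers, PCR copies are counted as reads, and intervals and levels of 3 reads cover counting error only.

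The mean of log2(TPM + 1) of each of 27514 genes with a read was set against the level of 1 TPM in limma 3.58.1 (R 4.3.3, two-sided, Benjamini-Hochberg over all genes, tested on simulated data with known answers). Differences on that scale understate those of low genes. Many adjusted p-values share 0.0434, which the adjustment sets. Pairs were compared within libraries with exact sign-flip tests, two-sided. Alternatives changed the pseudocount, filter, spread model, level and scaling and left out each library. Shared stretches of 50 bases were counted over M21 transcripts. Python 3.11.15, numpy 2.4.6, pandas 2.3.3, scipy 1.17.1 and matplotlib 3.10.9 were used. All 27 genes are named. Of the wider lists, 67 of 68 genes were analysed, genes called in the test were named by rule, and the uncalled ones named (Mbtps2 and Soat2) were chosen after their values were seen. The genes, lists and tests were chosen with earlier results of these data known. Some genes of the wider lists, and 1 pair with such a gene, are not reported here and stay in the counts and adjustments.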

Additional observations from a re-analysis of the deposited data

How the results depend on the processing

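The count of sterol genes above 1 TPM, 18 of 27, was 15 to 21 with a pseudocount of 0.1 TPM, a minimum mean of 0.5 TPM, no filter, a mean-variance trend, a tested level of 0.5 or 5 TPM, or without mitochondrially encoded genes, and 0 to 9 without 1 library. The wider count of 32 was 26 to 37 in the same settings and 0 to 20 without 1 library. Over all genes tested, 11.9% to 28.6% were called above in those settings, and 0% to 8.91% without 1 library. Members below 1 TPM, 0 in the reported test, were 1 with no filter or a trend (Mvk), 2 at 5 TPM (Mvk and Lss) and 0 to 1 without 1 library. The wider count below, 4, was 8 with no filter, 9 with a trend, 11 at 5 TPM, 0 with the minimum mean, at 0.5 TPM or without mitochondrially encoded genes, and 0 to 2 without 1 library. Of all genes tested, 56.8% were below with no filter, 35.7% with a trend and 51.1% at 5 TPM. With the minimum mean, at 0.5 TPM or without mitochondrially encoded genes, 0 of all genes were below, so these shifts were shared by the whole table. At 5 TPM the estimates of Scap (-1.05), Mvd (-0.41) and Fdps (-0.38) turned negative, that of Lss turned positive at 0.5 TPM (0.18), and that of Mvd negative without replicate 2 (-0.33 to 2.22 without 1 library), none of them called. The calls of Srebf1, Acat2, Mvk, Sqle, Lss, Tm7sf2, Hsd17b7 and Dhcr7 changed in at least 1 setting that kept all libraries. Npc2 minus Npc1, 0.35, was -0.036 to 1.05 without 1 library, and the early minus late median, 0.76, was -0.046 to 1.41. Each fit on 2 libraries has 1 residual degree of freedom. Limma called 2451 genes above and 5067 below without replicate 3, and 0 either way without replicate 1 or without replicate 2. Why these fits differed was not tested. No paired analysis was possible because there is 1 group of samples, so no samples of different groups share a number; the gene pairs were compared within libraries. Depth limits Mvk, with 2 reads in all.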
